A study of Mus musculus with 14 samples.

Results

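The ovary and the uterus of 7 mice were compared within each mouse. Every library of the series belonged to this comparison, 14 of 14, since each mouse gave 1 ovary and 1 uterus library under its own number. The members were the 7 within-mouse pairs, 3 from the old control group (OC1 to OC3) and 4 from the old treatment group (OT1 to OT4). The mice were C57BL/6J females, 28 weeks old when they were divided into groups. OC mice received normal saline in the tail vein. OT mice received conditioned medium of human amniotic membrane-derived mesenchymal stem cells (AMSC-CM), a concentrate mixed from 3 donors, at 1 µL per g of body weight in 6 injections 4 days apart. Before these injections all mice had been given pregnant mare serum gonadotropin and, 48 h later, human chorionic gonadotropin, each at 10 IU. The stage of the cycle and the age at collection are not given in the sources used here. RNA-seq after rRNA depletion gave each gene's level as FPKM, fragments scaled to the length of the transcript and to the depth of the library. Differences below are ovary minus uterus on log2(FPKM + 0.1) unless another scale is named, and they understate the change of genes near 0.1 FPKM.

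The ovary holds oocytes within follicles of granulosa and theca cells, and after ovulation the follicle wall becomes the corpus luteum. Luteinizing hormone acts on theca and luteal cells, which turn cholesterol into progesterone and androgens, and follicle-stimulating hormone acts on granulosa cells, which turn androgens into oestrogen. The uterus develops from the Mullerian duct and consists of a smooth muscle wall around a stroma with luminal and glandular epithelium, and its growth and receptivity follow ovarian oestrogen and progesterone.

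The FPKM table listed 21853 protein-coding genes, of which 14557 averaged at least 0.5 FPKM over the 14 libraries and were tested. Summed FPKM ran from 374816 to 397644 in ovaries and from 425875 to 577494 in uteruses, the OT1 uterus being highest. The 10 highest genes held 6.62 to 7.25% of the summed FPKM in ovaries and 9.54 to 12.73% in uteruses. Read depth was unknown, since no read totals were among the files used here. The labelled tissues carried their defining genes. Summed FPKM of the oocyte list was 61.96 to 125.8 in ovaries against 9.422 to 17.99 in uteruses, and summed FPKM of the smooth muscle list was 12950 to 23340 in uteruses against 1841 to 4900 in ovaries. Some libraries also carried genes of other tissues. In the OT1 uterus the adipocyte list summed to 17710 FPKM, the brown fat list to 734.1 and the urothelium list to 175.5, against highest values in the other uteruses of 3748, 50.51 and 25.33. A list of stratified squamous epithelium genes summed to 7.13 to 18.28 FPKM in OC uteruses and 53.04 to 951.8 in OT uteruses. The part of these tissues in the results was not tested, and the values of the OC pairs alone are given beside the results they touch.

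Across the 7 pairs 1387 genes were higher in ovary, 9.53% of those tested, and 1468 were higher in uterus, 10.1%. A gene was called when limma's adjusted p (Benjamini-Hochberg) was under 0.05 and the difference was at least 1 in size. The differences of called genes were larger on the ovary side. The median among called genes was 2.11 in ovary and -1.48 in uterus, and 454 against 68 genes differed by 3 or more. The largest differences were 11.16 for Hsd3b1 and -6.26 for Krt5. Most calls had the same sign in every mouse, 92.14% of those higher in ovary and 86.78% of those higher in uterus. The calls were made from the same 7 differences, and the rule favours genes with 1 sign throughout. Over all tested genes the median difference was 0.005 and the quartiles were -0.39 and 0.35. In 13.5% of tested genes all 7 ovaries lay above all 7 uteruses, and in 11.5% all 7 uteruses lay above all 7 ovaries. When each library was rescaled to its own total the median of all genes moved to 0.251 and calls higher in ovary made up 64.01% of all calls instead of 48.58%. In bulk tissue, fewer cells of a type and less RNA per cell cannot be told apart.

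**Figure D1:**
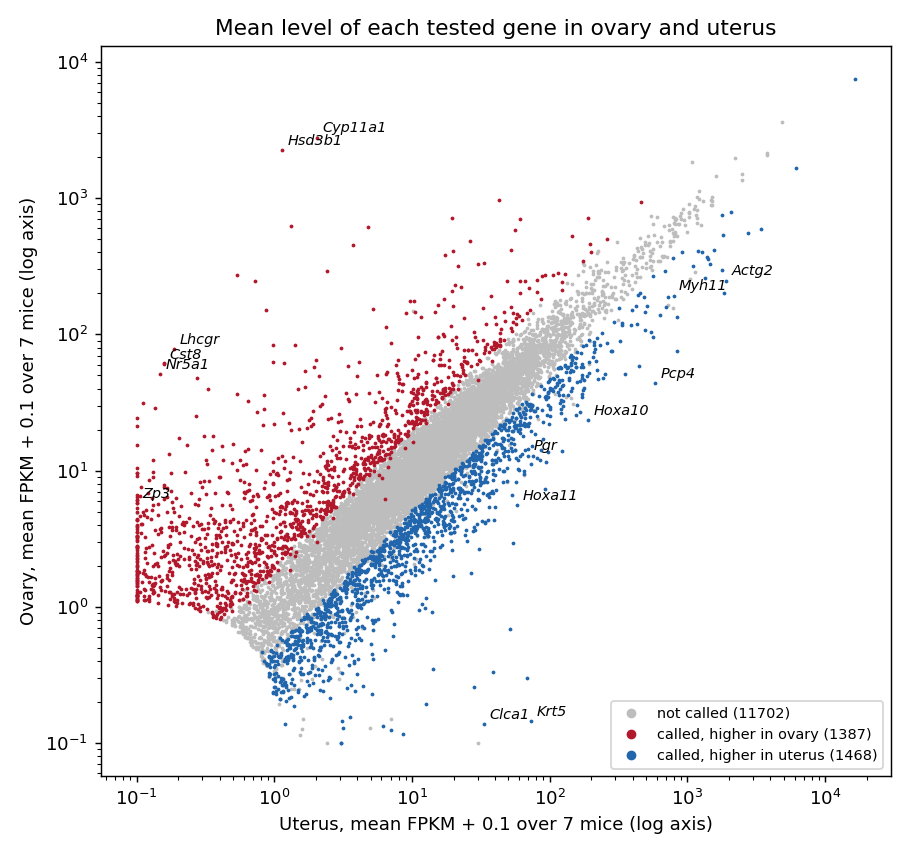
Mean FPKM + 0.1 of each tested gene in 7 uteruses (x, log axis) and 7 ovaries (y, log axis). Red points are the 1387 genes called higher in ovary, blue points the 1468 called higher in uterus and grey points the rest. Red points reach farther from the grey band than blue ones.

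The largest differences of all belonged to the machinery that makes steroid hormones. Of 16 tested steroid hormone synthesis genes, 12 were higher in ovary and none in uterus, with a median of 4.96. Hsd3b1, which makes progesterone from pregnenolone (chr3:98852194-98859794 of mm10), ran from 2032 to 2414 FPKM in ovaries with a median of 2286. In uteruses it ran from 0.1994 to 1.888 with a median of 1.074. Its difference was 11.16 ± 0.3 (SE, 7 pairs, adjusted p = 1.265e-08). Cyp11a1, which cuts the cholesterol side chain (chr9:58006411-58027023), was the third most abundant gene of the ovary libraries, at 2456 to 3148 FPKM (median 2767) against 0.6652 to 3.305 (median 2.312) in uteruses. Its difference was 10.60 ± 0.26 (adjusted p = 7.996e-09), and it shares its strand and part of its position with the noncoding gene Gm17322. Star, which delivers cholesterol to the inner mitochondrial membrane, ran from 398.7 to 756 FPKM (median 626.1) in ovaries and from 3.151 to 6.814 (median 4.318) in uteruses, a difference of 7.01 ± 0.11 and a fold of 129.1.

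Ovaries lay above uteruses in every mouse for these 3 genes, and the exact two-sided sign-flip permutation test gave p = 0.01562, the smallest that 7 pairs allow. Any gene with the same sign in all 7 pairs has this p. Hsd3b1 and Cyp11a1 met a naming rule that asked for that, so the test adds no support for them. The enzymes of the next steps varied far more between ovaries. Cyp17a1, which makes androgens, ran from 1.617 FPKM in OT2 to 112.1 in OT1 with a median of 17.65, and its highest uterus value was 0.07715. Its difference was 7.26 ± 0.66 (adjusted p = 1.653e-05). Cyp19a1, the aromatase that makes oestrogen, ran from 1.724 (OT2) to 14.65 FPKM (OC3) with a median of 8.698, and its highest uterus value was 0.1008. Its difference was 5.85 ± 0.42 (adjusted p = 3.824e-06). Hsd17b7, an enzyme of oestradiol and cholesterol synthesis, differed by 7.19 ± 0.33. The 4 list members that were not called, Por, Stard3, Tspo and Srd5a1, are chosen here after their values were seen and had differences of 0.25, 0.41, 0.20 and -0.04. They act in many tissues besides steroid-making ones.

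**Figure D2:**
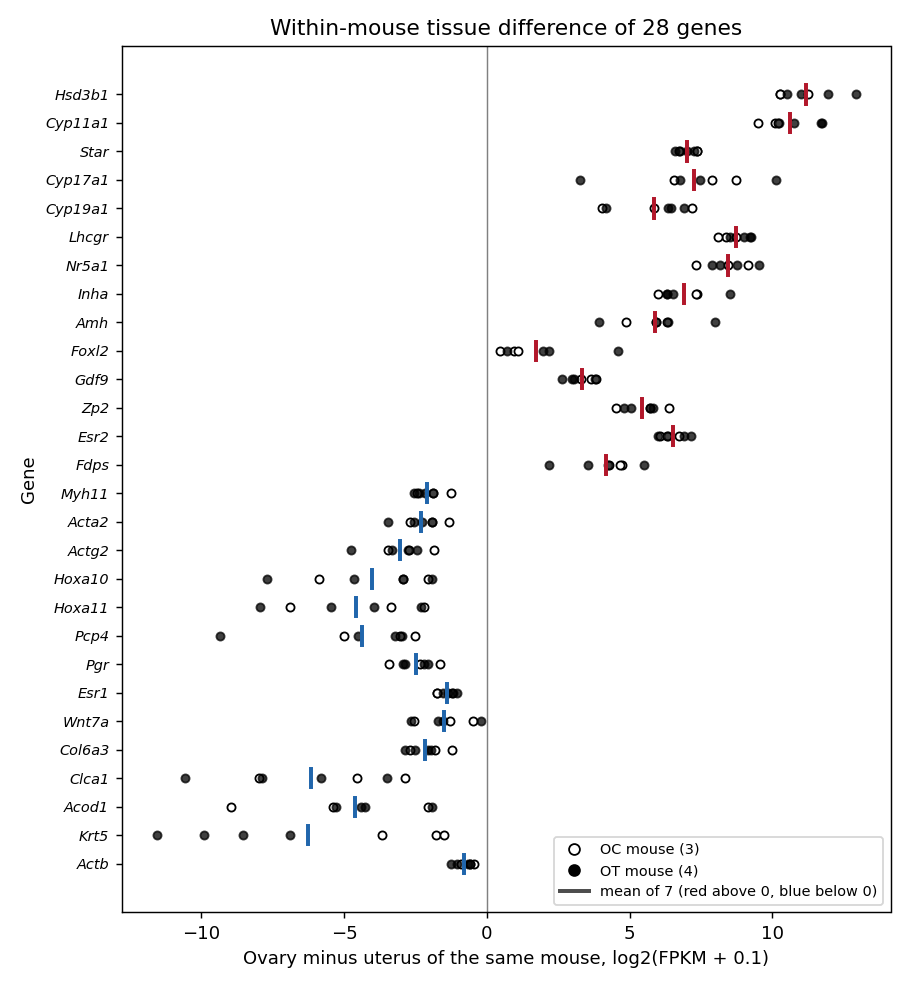
Ovary minus uterus on log2(FPKM + 0.1) for 28 genes (y), 1 point per mouse (x). Open circles are OC mice, filled circles OT mice, and the bar is the mean of 7. Hsd3b1 lay between 10.25 and 12.91 in all mice, whereas Krt5 ran from -11.55 to -1.51.

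The enzymes that make cholesterol, the substrate of all steroid hormones, were also higher in ovary. Of 19 tested cholesterol synthesis genes 16 were called higher in ovary, none in uterus, and the median was 2.80. Fdps, which makes farnesyl diphosphate, ran from 264.4 to 444.7 FPKM (median 294.3) in ovaries and from 9.78 to 57.87 (median 13.96) in uteruses. Its difference was 4.16 ± 0.32 (adjusted p = 6.194e-06). Sc5d and Msmo1, late enzymes of the pathway, differed by 3.75 ± 0.3 and 3.69 ± 0.29. The uterus values were uneven. Summed FPKM of the list was 203 to 415.6 in 6 uteruses and 593.9 in the OT1 uterus, the one with the highest adipocyte sum, against 1736 to 2532 in ovaries. In the 3 OC pairs the median was 3.22 and 17 genes were higher in ovary.

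Receptors for the gonadotropins and for luteal regulators were on the ovary side. Lhcgr, the receptor of luteinizing hormone (chr17:88716481-88791990), ran from 62.23 to 87.93 FPKM (median 78.12) in ovaries and from 0.03773 to 0.1839 (median 0.07008) in uteruses. The difference was 8.74 ± 0.16 (adjusted p = 1.506e-09). Fshr, the receptor of follicle-stimulating hormone and the neighbour of Lhcgr on chromosome 17, ran from 1.258 to 4.299 FPKM (median 2.728) in ovaries and was listed at 0 in all uteruses. Ptgfr, the receptor through which prostaglandin F2 alpha ends the life of the corpus luteum, ran from 132.1 to 176.7 FPKM (median 145.4) in ovaries and from 3.336 to 8.513 (median 4.299) in uteruses, a difference of 4.96 ± 0.19. Lhcgr and Ptgfr were thus present in every ovary within a narrow range. Of 13 tested theca and luteal cell genes 10 were higher in ovary, none in uterus, with a median of 3.82.

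Granulosa cell genes were higher in ovary in 16 of 18 tested members, none were higher in uterus, and the median was 3.68, or 3.45 without Fshr. Inha, the alpha subunit of inhibin, ran from 232 to 643 FPKM (median 420.8) in ovaries and from 1.573 to 5.117 (median 3.912) in uteruses. Its difference was 6.91 ± 0.27 (adjusted p = 1.076e-07). Amh, the anti-Mullerian hormone of growing follicles, ran from 9.978 to 25.29 FPKM (median 18.37) in ovaries and from 0 to 0.8693 (median 0.2158) in uteruses, a difference of 5.90 ± 0.4. Neither transcript overlapped in level between the organs, and in 13.5% of tested genes all 7 ovaries lay above all 7 uteruses. Amhr2, the receptor gene of this hormone, was less restricted, at 17.15 to 30.48 FPKM (median 26.85) against 0.7055 to 4.066 (median 1.473). The difference of Amhr2 was 3.91 ± 0.3 (adjusted p = 5.618e-06). Foxl2, a transcription factor that maintains granulosa identity, was expressed in both organs, at 14.74 to 29.26 FPKM (median 18.36) in ovaries and 1.101 to 10.92 (median 7.922) in uteruses. Its difference of 1.71 ± 0.43 fell to 0.84 in the OC pairs, where it was not called.

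Nr5a1 and Nr5a2 encode steroidogenic factor 1 (SF-1) and LRH-1, nuclear receptors that bind the sequence CAAGGTCA in promoters of steroid-making genes. Nr5a1 ran from 33.58 to 73.33 FPKM (median 49.35) in ovaries and from 0 to 0.1118 (median 0.05434) in uteruses, a difference of 8.46 ± 0.25 (adjusted p = 2.331e-08). Nr5a2 ran from 65.2 to 101.2 FPKM (median 84.04) in ovaries and from 0.2545 to 2.256 (median 1.567) in uteruses, a difference of 6.15 ± 0.33. Gata4, a partner of SF-1 in gonads, differed by 7.65 ± 0.21, and Lhx9, an early gonad factor, by 4.57 ± 0.26. Of 12 gonad transcription factors 7 were higher in ovary and 1 in uterus, with a median of 1.75. The exception was Six4, named after its values were seen, at -1.15 ± 0.14, a call that was lost with a pseudocount of 1, with libraries rescaled to their totals and in the OC pairs (-0.87). Wt1, a gonad and mesothelium factor, was expressed in both organs, at 31.59 to 38.12 FPKM in ovaries and 38.18 to 48.3 in uteruses, a difference of -0.37 ± 0.08 below the size needed for a call.

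Promoter windows from RefSeq (GRCm38.p6, 250 bases before to 50 after the start) were searched for CAAGGTCA or its reverse complement TGACCTTG, and 301 of 424 named and listed genes had a window. The site was in 1.56% of all 32851 windows, 1.1% of 14408 windows of tested genes, 2.25% of 1290 windows of genes higher in ovary and 1.21% of 1403 windows of genes higher in uterus. None of 13 windows of the steroid hormone synthesis list held it. These windows covered 10 of the 17 genes listed, so the others were not searched. Among named and listed genes higher in ovary it was found before Cst8, a cystatin (chr2:148798589-148798838), Dhcr7, the last enzyme of cholesterol synthesis (chr7:143822917-143823166), and Amhr2 (chr15:102445117-102445366). The 250 bases before each start are shown on the plus strand, 5′ to 3′, because these are the genes of that kind with a match, and capitals mark the match, which began 48, 52 and 232 bases before the start.
Cst8: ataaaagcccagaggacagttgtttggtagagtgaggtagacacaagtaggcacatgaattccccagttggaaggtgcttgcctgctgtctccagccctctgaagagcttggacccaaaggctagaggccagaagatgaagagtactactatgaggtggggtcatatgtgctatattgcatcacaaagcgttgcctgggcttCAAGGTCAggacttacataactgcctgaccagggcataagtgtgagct
Dhcr7: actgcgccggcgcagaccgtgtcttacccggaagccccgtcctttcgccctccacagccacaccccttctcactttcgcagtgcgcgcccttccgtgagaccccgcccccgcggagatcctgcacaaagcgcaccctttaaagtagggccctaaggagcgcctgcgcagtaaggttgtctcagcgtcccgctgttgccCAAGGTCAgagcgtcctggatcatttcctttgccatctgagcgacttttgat
Amhr2: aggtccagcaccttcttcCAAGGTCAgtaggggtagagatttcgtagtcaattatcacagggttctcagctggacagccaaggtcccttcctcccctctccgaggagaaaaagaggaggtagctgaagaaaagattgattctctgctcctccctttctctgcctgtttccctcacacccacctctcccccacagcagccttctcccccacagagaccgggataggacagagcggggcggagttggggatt
Dhcr7 ran from 45.94 to 82.37 FPKM (median 70) in ovaries and from 4.882 to 12.69 (median 7.588) in uteruses, a difference of 3.07 ± 0.22. A match describes the letters of the window, and binding was not measured.

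Oocyte genes were detected in every ovary, at low levels. Of 24 tested members 23 were higher in ovary and none in uterus. Their median was 3.90, or 3.39 without 6 genes that were listed at 0 in all uteruses. Zp3, a protein of the zona pellucida around the oocyte, ran from 3.044 FPKM in OT2 to 7.977 in OC1 (median 5.499) and was listed at 0 in all uteruses. Zp2, another zona protein, ran from 2.66 to 8.143 (median 5.142) and reached 0.06663 in uteruses, a difference of 5.43 ± 0.27. Gdf9, a growth factor that the oocyte sends to granulosa cells, ran from 6.186 to 10.34 FPKM (median 7.648) in ovaries and from 0.4405 to 1.209 (median 0.8271) in uteruses, a difference of 3.32 ± 0.17. Padi6, part of the cytoplasmic lattices of the oocyte, differed by 6.09 ± 0.23. Nlrp14 ran from 3.935 to 7.68 FPKM in ovaries and was listed at 0 in all uteruses. Summed oocyte FPKM was lowest in the OT2 ovary (61.96), which also had the lowest Cyp17a1, Cyp19a1 and granulosa sum (736.8). The member that was not called was Kit, at -0.34, a receptor of oocytes and of mast cells.

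Several of the largest ovary differences were outside the lists. Prss35, a protease-like protein of the follicle, ran from 213.5 to 341.4 FPKM in ovaries and from 0.1013 to 1.202 in uteruses, a difference of 9.22 ± 0.28. Akr1cl, an aldo-keto reductase, ran from 544.8 to 674.8 against 0.4536 to 1.906 and differed by 9.01 ± 0.21. Mgarp, a mitochondrial protein of steroid-making cells, differed by 8.85 ± 0.38, and Hao2, a peroxisomal oxidase gene next to Hsd3b1, by 8.71 ± 0.2. Without any pseudocount, 63 genes (0.288% of 21853) were at 1 FPKM or more in all ovaries and under 0.1 in all uteruses, 41 of them listed at 0 in all uteruses. The reverse pattern was found for 1 gene (0.00458%), Clca1. The 5 ovary genes with the highest levels were Cyp17a1, Tmem212, Cst12, Mmel1 and Dcpp3. Cst12, a cystatin beside Cst8 on chromosome 2, ran from 18.28 to 25.36 FPKM, and Dcpp3 from 5.176 to 15.68.

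The ovary libraries also carried genes of the oviduct and of ciliated epithelium, which lines the oviduct next to the ovary. Of 15 tested oviduct and ciliated cell genes 14 were higher in ovary, none in uterus, with a median of 3.89, or 3.86 without 1 gene listed at 0 in all uteruses. Ovgp1, the oviduct glycoprotein, ran from 424 to 942.4 FPKM (median 724.7) in ovaries and from 3.862 to 169.2 (median 40.88) in uteruses. Its difference was 4.16 ± 0.43 (adjusted p = 3.79e-05). Foxj1, the master regulator of motile cilia, ran from 11.95 to 20.53 FPKM (median 19.07) in ovaries and from 0.1128 to 0.297 (median 0.2477) in uteruses, a difference of 5.87 ± 0.2. No ovary was without them. The cilia genes Ccdc153 and Tmem212 were among the 12 genes that stood highest in ovary, Ccdc153 at 21.87 to 34.81 FPKM against at most 0.2416 in uteruses and Tmem212 at 12.41 to 33.03 FPKM and listed at 0 in all uteruses. Of the 63 genes on in ovary and off in uterus, 6 were on the oocyte list and 3 on the oviduct and ciliated cell list. These counts cover only members of short lists and do not rank the cell types among the 63. Listed or not, cilia genes among the 63 included Tmem212, Cfap44, Rsph4a, Dnah11 and Drc7, named after their values were seen.

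**Figure D3:**
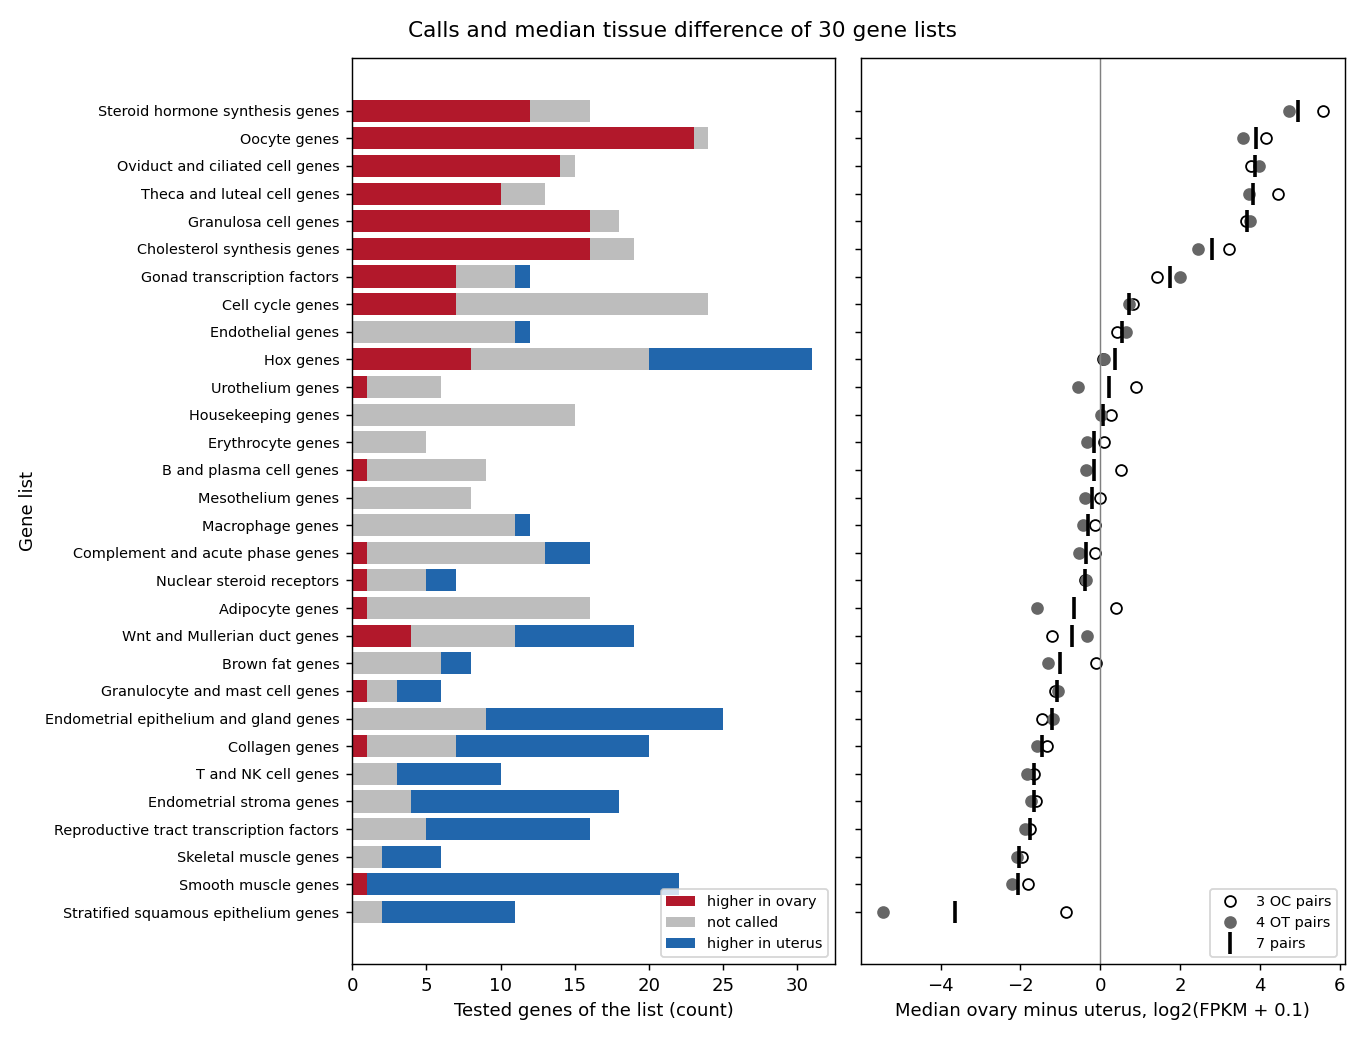
For 30 gene lists (y), the number of tested genes called higher in ovary (red), higher in uterus (blue) or not called (grey), and on the right the median of ovary minus uterus on log2(FPKM + 0.1) over 7 pairs (bars), 3 OC pairs (open) and 4 OT pairs (filled). The steroid list stood highest at 4.96, and the squamous list, lowest at -3.64, was the one whose OC and OT medians lay farthest apart, -0.87 and -5.44.

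On the uterus side the contractile genes of smooth muscle moved together. Of 22 tested smooth muscle genes 21 were higher in uterus and 1 in ovary, with a median of -2.05, and in the OC pairs 19 were higher in uterus with a median of -1.82. Actg2, the enteric gamma actin of smooth muscle, ran from 1438 to 2928 FPKM (median 1768) in uteruses and from 91.23 to 399.6 (median 262.5) in ovaries. Its difference was -3.05 ± 0.29 (adjusted p = 2.251e-05). Myh11, the smooth muscle myosin heavy chain, ran from 584.7 to 1137 FPKM (median 755.9) in uteruses and from 99.24 to 278.7 (median 195.3) in ovaries, a difference of -2.08 ± 0.15. Des, the intermediate filament desmin, Pln, the regulator of the calcium pump, and Synpo2, an actin-bundling protein, differed by -2.71 ± 0.28, -2.73 ± 0.17 and -2.85 ± 0.18. Ovaries thus held all these transcripts at lower levels, and they varied among themselves, the summed list being 1841 FPKM in OT1 and 4900 in OC2. The exception was Oxtr, the oxytocin receptor that drives contraction of the womb. It was higher in ovary, at 21.76 to 37.26 FPKM against 8.24 to 25.43, a difference of 1.03 ± 0.23 (adjusted p = 0.004059) that was just past the size needed for a call. The call was lost with a pseudocount of 1, in the OT pairs alone and when OC2, OC3 or OT2 was left out.

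The CArG box, the binding sequence of serum response factor at muscle genes, was in 1.63% of all windows, 1.3% of those of tested genes, 2.92% of 1403 windows of genes higher in uterus and 1.09% of 1290 windows of genes higher in ovary. Of 20 windows of the smooth muscle list, which covered 18 of its 22 genes, 1 held it. It was that of Myl9, a myosin light chain (chr2:156775214-156775463, plus strand). The other named or listed gene higher in uterus with a match was Acta1, the skeletal alpha actin (chr8:123894776-123895025, minus strand). Both are shown 5′ to 3′ for the 250 bases before the start, with the match in capitals, beginning 161 and 73 bases before the start.
Myl9: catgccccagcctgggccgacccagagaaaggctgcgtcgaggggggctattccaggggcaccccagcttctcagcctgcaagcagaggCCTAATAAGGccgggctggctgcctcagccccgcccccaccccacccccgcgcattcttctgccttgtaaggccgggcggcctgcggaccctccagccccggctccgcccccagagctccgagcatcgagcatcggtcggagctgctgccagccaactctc
Acta1: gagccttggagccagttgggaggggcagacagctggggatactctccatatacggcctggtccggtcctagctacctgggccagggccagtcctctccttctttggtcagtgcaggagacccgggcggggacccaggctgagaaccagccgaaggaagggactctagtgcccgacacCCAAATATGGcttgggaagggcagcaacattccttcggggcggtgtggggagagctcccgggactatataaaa
Myl9 ran from 1145 to 1806 FPKM (median 1401) in uteruses and from 210.4 to 503.7 (median 364.2) in ovaries, a difference of -2.01 ± 0.2. Acta1 ran from 60.08 to 138.6 FPKM (median 72.3) in uteruses and from 1.656 to 16.28 (median 6.986) in ovaries, a difference of -3.88 ± 0.38. In the skeletal muscle list 4 of 6 tested genes were higher in uterus and none in ovary, with a median of -2.04.

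Matrix and stromal genes were likewise higher in uterus. Of 20 collagen and matrix genes 13 were higher in uterus and 1, Col8a1, in ovary, with a median of -1.47. Col1a1, the main fibrillar collagen chain, ran from 1066 to 2098 FPKM (median 1240) in uteruses and was at most 373.8 (median 266.3) in ovaries. Its difference was -2.43 ± 0.18 (adjusted p = 5.76e-06). Col6a2, Col6a3 and Col14a1 differed by -2.22 ± 0.16, -2.15 ± 0.19 and -2.06 ± 0.2. Of 18 endometrial stroma genes 14 were higher in uterus and none in ovary, with a median of -1.66. In the OC pairs 14 were higher in uterus and 2 in ovary, and with libraries rescaled to their totals 1 was higher in ovary. Hand2, through which progesterone restrains growth signals from stroma to epithelium, ran from 10.88 to 27.5 FPKM (median 19.22) in uteruses and from 0.9655 to 5.207 (median 2.715) in ovaries, a difference of -2.82 ± 0.2.

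The 2 oestrogen receptors differed in opposite directions. Esr1, oestrogen receptor alpha, ran from 89.45 to 177.8 FPKM (median 164.7) in uteruses and from 42.81 to 71.92 (median 55.8) in ovaries. Its difference was -1.41 ± 0.1 (adjusted p = 3.478e-06). Esr2, oestrogen receptor beta, ran from 6.293 to 16.59 FPKM (median 12.09) in ovaries and from 0 to 0.1221 (median 0) in uteruses, a difference of 6.51 ± 0.2 (adjusted p = 2.645e-08). Neither receptor overlapped between the organs. All 7 ovaries lay above all 7 uteruses in 13.5% of tested genes, and the reverse held in 11.5%. Pgr, the progesterone receptor, ran from 37.87 to 94.5 FPKM (median 69.98) in uteruses and from 4.834 to 17.5 (median 15.02) in ovaries, a difference of -2.50 ± 0.19. Of the 7 nuclear steroid receptors tested, 1 was higher in ovary and 2 in uterus, and the median was -0.37. Beside these counts stand 9.53% and 10.1% of all tested genes.

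Transcription factors of the reproductive tract were higher in uterus in 11 of 16 tested members and higher in ovary in none, with a median of -1.76, or -1.68 without Hoxa13. Hoxa10, which is needed for implantation, ran from 137.9 to 236.2 FPKM (median 185.8) in uteruses and from 0.5722 to 53.39 (median 23.4) in ovaries. Its difference was -4.01 ± 0.65 (adjusted p = 0.0006399). Hoxa11, its neighbour in the cluster (chr6:52242106-52245810), ran from 41.72 to 73.24 FPKM (median 60.13) in uteruses and from 0.07068 to 14.75 (median 3.779) in ovaries, a difference of -4.59 ± 0.68. Hoxa13, which patterns the lower tract, ran from 0.4429 to 7.553 FPKM (median 1.976) in uteruses and was listed at 0 in all ovaries. The wide ovary ranges followed the same libraries. For Hoxa10 the ovary values were 0.5722 in OT1, 3.921 in OC1, 6.091 in OT2, 23.4 in OT4, 27.72 in OC3, 48.91 in OT3 and 53.39 in OC2, and the summed smooth muscle list was also lowest in OT1 and highest in OC2. The part of tract tissue in these ovary values was not tested.

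In the Hoxa and Hoxc clusters the direction of the called genes changed with position, a description chosen after the values were seen. Of 31 tested Hox genes 8 were higher in ovary and 11 in uterus, with a median of 0.36, or 0.40 without Hoxa13. In the Hoxa cluster Hoxa4, Hoxa5 and Hoxa6 were higher in ovary by 1.52, 1.49 and 1.50, and Hoxa9, Hoxa10, Hoxa11 and Hoxa13 were higher in uterus. In the Hoxc cluster Hoxc4, Hoxc5, Hoxc6, Hoxc8 and Hoxc9 were higher in ovary by 1.37 to 2.32, whereas Hoxc11 was higher in uterus (-2.61 ± 0.42). Hoxc8 ran from 5.998 to 9.201 FPKM (median 8.552) in ovaries and from 0.7108 to 5.968 (median 1.229) in uteruses. In the Hoxd cluster Hoxd10 and Hoxd11 were higher in uterus (-1.25 and -2.51), and Hoxd3, Hoxd4, Hoxd8 and Hoxd9 were not called (0.51, 0.45, 0.53 and -0.44). The Hoxb cluster did not follow this order, with Hoxb3, Hoxb5, Hoxb6 and Hoxb8 higher in uterus and none in ovary. Hoxb8 differed most, at 2.599 to 34.41 FPKM (median 19.21) in uteruses against 0.3421 to 5.185 (median 1.107) in ovaries. In the OC pairs 8 Hox genes were higher in ovary and 12 in uterus.

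**Figure D4:**
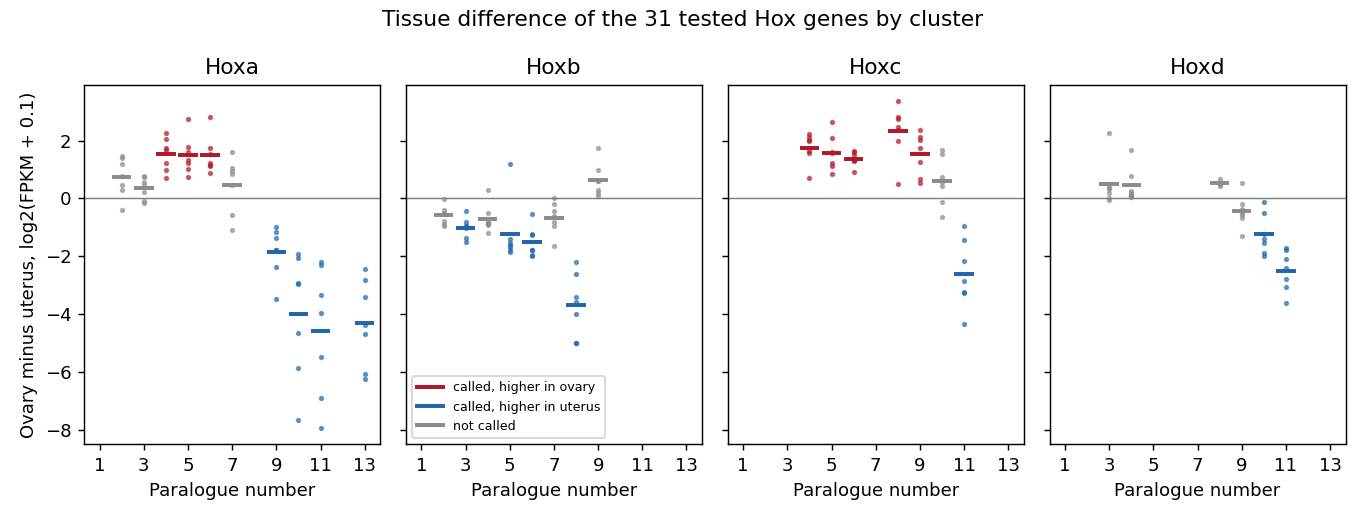
Ovary minus uterus on log2(FPKM + 0.1) (y) of 31 Hox genes by cluster and paralogue number (x), with 1 point per mouse and a bar at the mean. In Hoxa and Hoxc the means pass from above 0 to below 0 as the number grows, from 1.52 at Hoxa4 to -4.59 at Hoxa11. Hoxa13 was listed at 0 in all ovaries.

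Genes of the endometrial epithelium and glands were higher in uterus in 16 of 25 tested members and in ovary in none, with a median of -1.21. In the OC pairs 13 were higher in uterus and none in ovary. A count of 1 higher in ovary was found in the OT pairs, with 75th percentile scaling, with libraries rescaled to their totals and without OC1. Prap1, a secreted acidic protein of uterine epithelium, ran from 169.9 to 1836 FPKM (median 657.1) in uteruses and from 1.008 to 244.4 (median 66.41) in ovaries, a difference of -5.05 ± 0.94. Sprr2f, a small proline-rich protein induced by oestrogen, ran from 9.754 to 101.2 (median 59.59) against 0 to 8.994 (median 0.6441) and differed by -4.99 ± 0.72. Both covered a wide range among uteruses. Cldn4, a tight junction protein of epithelia, differed by -2.68 ± 0.27. Foxa2, the factor needed for uterine glands, was near 2 FPKM in both organs, at 1.355 to 2.441 in ovaries and 0.4384 to 3.385 in uteruses. Its difference of 0.04 ± 0.33 (adjusted p = 0.9263) had no stable sign. It was -0.04 with a pseudocount of 1 and -0.48 in the OC pairs.

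Wnt pathway members pointed both ways. Of 19 tested Wnt and Mullerian duct genes 4 were higher in ovary and 8 in uterus, with a median of -0.71. Wnt4, which promotes ovarian fate, ran from 44.28 to 76.49 FPKM (median 54.84) in ovaries and from 0.8576 to 3.59 (median 1.297) in uteruses, a difference of 5.09 ± 0.25. Lgr5, the receptor of R-spondins, ran from 5.001 to 8.956 (median 5.747) against 0.1415 to 1.642 (median 0.8563), a difference of 3.09 ± 0.34. Wnt7a, the ligand of the Mullerian epithelium, was low in both, at 0.5772 to 3.705 FPKM (median 0.9794) in uteruses and 0.1429 to 0.6664 (median 0.4858) in ovaries. Its difference was -1.50 ± 0.33 (adjusted p = 0.004072), it was not called in the OC pairs (-1.45), and its groups overlapped. Pax2, a Mullerian duct factor, differed by -2.60 ± 0.49, but its groups overlapped. In OT1 the sign was opposite (0.22), with 0.217 FPKM in the uterus and 0.2682 in the ovary.

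Other genes with large uterus differences were Clca1, Pcp4, Sult1d1, Acod1, Olfm4 and Cox8b. Clca1, a secreted mucus-processing protein, ran from 1.035 to 152.2 FPKM (median 9.876) in uteruses and never passed 0.07789 in ovaries, a difference of -6.17 ± 0.85 (adjusted p = 0.00023). Pcp4, a calmodulin-binding peptide, ran from 417.7 to 874.5 FPKM (median 565.5) in uteruses and from 0.9857 to 77.75 (median 45.95) in ovaries, a difference of -4.37 ± 0.71. It shares its strand with Igsf5, and reads of overlapping genes on 1 strand cannot be told apart. Acod1, the itaconate-making enzyme that progesterone induces in uterine epithelium, differed by -4.61 ± 0.72, and its highest value, 49.48 FPKM, was in the OC1 uterus. Olfm4, a secreted glycoprotein, was 0.1298 to 3.232 FPKM in OC uteruses and 6.59 to 47.18 in OT uteruses. Its difference was -4.67 ± 0.85 over 7 pairs and -6.45 in the OT pairs, and it was not called in the OC pairs (-2.30, adjusted p = 0.1143). Cox8b, a muscle and brown fat subunit of cytochrome c oxidase, rested on 1 library for its level. It was 339.7 FPKM in the OT1 uterus and 1.701 to 7.261 in the other 6, and its difference was -4.36 ± 0.81 over 7 pairs and -3.61 in the OC pairs.

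Genes of stratified squamous epithelium were also among the large uterus differences, and their levels varied widely among uteruses. Of 11 tested squamous genes 9 were higher in uterus over 7 pairs, with a median of -3.64, but in the OC pairs 2 were, with a median of -0.87. Krt5, the basal keratin (chr15:101707070-101712898), was 0.457, 2.81 and 0.357 FPKM in OC uteruses and 37.11, 11.71, 299.2 and 159 in OT uteruses, with at most 0.1273 in any ovary. Its difference was -6.26 ± 1.21 (adjusted p = 0.00193) over all pairs, -2.32 in the OC pairs and -9.22 in the OT pairs. Krt13, a keratin of the vaginal and oral lining, ran from 0.423 to 5.103 FPKM in OC uteruses and from 19.6 to 287 in OT uteruses, and it was not called in the OC pairs (-2.61, adjusted p = 0.05799). Krt14 and Krt15 were not called there either, at -0.86 and -0.92. The 6 called genes with the widest spread between mice were Krt5, Sprr1a, Krt15, Krt13, Krt14 and Prap1.

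Fat genes varied widely between libraries. Beside the counts below, 9.53% of all tested genes were higher in ovary and 10.1% in uterus. Of 16 adipocyte genes 1, Plin4, was higher in ovary and none in uterus, with a median of -0.66, 0.40 in the OC pairs and -1.58 in the OT pairs. In the OT pairs 8 were higher in uterus and none in ovary, in the OC pairs 2 were higher in ovary and none in uterus, and without OC1 5 were higher in uterus. Cfd, the adipocyte protease adipsin, ran from 24.49 to 5531 FPKM in uteruses and from 47.2 to 790.9 in ovaries, and its difference of -1.07 ± 0.51 was not called. Car3, a carbonic anhydrase of fat and muscle, differed by -1.06 ± 0.52 and was not called. Of 8 brown fat genes 2 were higher in uterus, Cox8b and Dio2, and none in ovary, with a median of -1.01, or -0.53 without Ucp1. Without OT1 3 brown fat genes were higher in ovary, and in the OC pairs 3 were, with a median of -0.11. Ucp1, which defines brown fat, was 209.9 FPKM in the OT1 uterus, 0.112 in the OT3 uterus and listed at 0 in the other 12 libraries. Of 6 urothelium genes 1, Upk1a, was higher in ovary, at 8.971 to 23.19 FPKM against 0.14 to 41.53, with a median of 0.21 for the list, and it was not called in the OT pairs. Upk3a, a defining urothelium gene, was 48.71 FPKM in the OT1 uterus, 0.344 in the OT3 ovary and listed at 0 elsewhere.

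**Figure D5:**
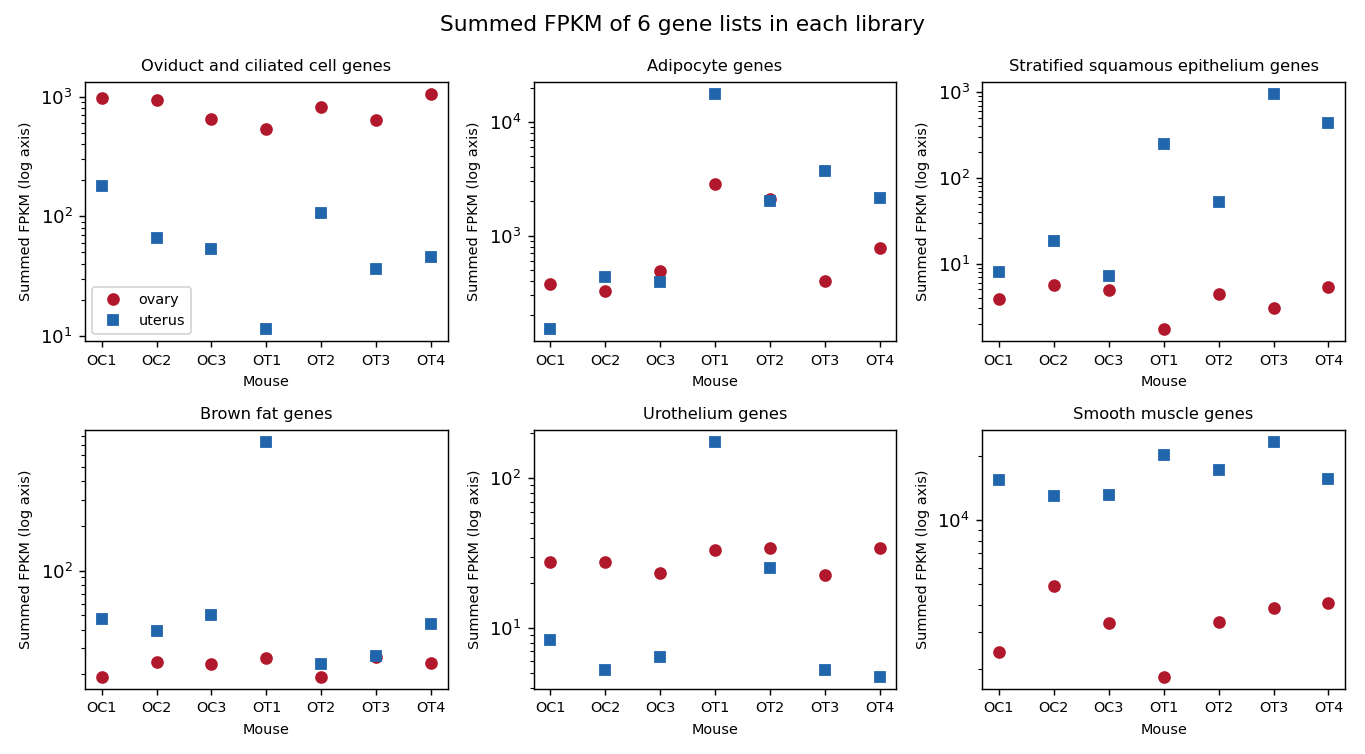
Summed FPKM of 6 gene lists (y, log axis) in the ovary (red circles) and uterus (blue squares) of each mouse (x). The OT1 uterus stands highest for adipocyte, brown fat and urothelium genes (17710, 734.1 and 175.5), and the 4 OT uteruses lie above the 3 OC uteruses for squamous genes.

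Lymphocyte and mast cell genes were among those higher in uterus. Of 10 tested T and NK cell genes 7 were higher in uterus and none in ovary, with a median of -1.66. Gzmb, the protease of killer cells, ran from 3.904 to 14.68 FPKM (median 6.492) in uteruses and from 0.449 to 5.884 (median 2.236) in ovaries, a difference of -2.11 ± 0.31, and Lck, a T and NK cell kinase, differed by -1.17 ± 0.19. Among granulocyte and mast cell genes 3 of 6 were higher in uterus and 1, S100a8, in ovary, with a median of -1.09. The S100a8 call was lost with a pseudocount of 1 or 0.01, with quantile normalization, without the block, in the OC or OT pairs alone and when OC1, OC3, OT2 or OT4 was left out. Mcpt4, a mast cell chymase, ran from 10.11 to 30.82 (median 17.35) against 1.642 to 6.068 (median 3.182), a difference of -2.50 ± 0.32, and Tpsb2, a mast cell tryptase, differed by -1.84 ± 0.22. Macrophage genes showed 1 call in 12, higher in uterus, with a median of -0.31, a share near the 10.1% of all tested genes. The call was lost with libraries rescaled to their totals, in the OC pairs and without OT1 or OT2. B and plasma cell genes showed 1 call in 9, Derl3 in ovary, with a median of -0.16, a share near the 9.53% of all tested genes. Of 12 endothelial genes 1, Vwf, was higher in uterus and none in ovary (median 0.54), again near the 10.1% of all tested genes. With libraries rescaled to their totals 4 endothelial genes were higher in ovary and none in uterus, without OT4 2 were higher in ovary, and Vwf was not called in the OT pairs. None of 8 mesothelium (median -0.21) or 5 erythrocyte genes (median -0.15) was called. With libraries rescaled to their totals the medians of the B cell, mesothelium and erythrocyte lists turned to 0.05, 0.04 and 0.10.

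Of 24 cell cycle genes 7 were called, all higher in ovary, and 17 were not. The differences ran from 0.21 to 1.76 with a median of 0.73. With a pseudocount of 1 the count was 3, and with libraries rescaled to their totals it was 11. Ccnb1, the mitotic cyclin, ran from 7.098 to 10.98 FPKM (median 9.8) in ovaries and from 1.075 to 4.286 (median 2.735) in uteruses, a difference of 1.76 ± 0.2. Cdk1, its kinase, ran from 10.3 to 16.88 FPKM (median 16.42) in ovaries and from 2.322 to 7.58 (median 5.753) in uteruses, a difference of 1.49 ± 0.19. Of 16 complement and acute phase genes 1 was higher in ovary and 3 in uterus, with a median of -0.35. Beside these counts, 9.53% of all tested genes were higher in ovary and 10.1% in uterus. The counts were 4 and 1 with libraries rescaled to their totals, where the median was -0.11, and 2 and 2 in the OC pairs, and without OC1 5 were higher in uterus. Cfb, C3 and C4b, proteins of complement activation, differed by -2.07 ± 0.18, -1.23 ± 0.14 and -1.07 ± 0.11. Saa3, an acute phase protein, was the one higher in ovary (3.47 ± 0.74), but it was 192.6 FPKM in its highest uterus and was not called in the OT pairs alone.

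None of 15 housekeeping genes was called, and their median was 0.07. Actb, at 1984 to 2383 FPKM in ovaries and 3065 to 4716 in uteruses, differed by -0.78 ± 0.17, although quantile normalization turned it to 0.03. It did not overlap between organs, and in 11.5% of tested genes all 7 uteruses lay above all 7 ovaries. The highest gene of both organs was listed as Ccnb1ip1, at 6539 to 8309 FPKM in ovaries and 12730 to 27220 in uteruses, and it overlaps the noncoding RNA gene Rpph1 on the same strand. Tmsb4x, the actin-binding thymosin beta 4, was next highest in uterus, at 4754 to 8527 FPKM against 1203 to 2061 in ovaries, a difference of -1.89 ± 0.23.

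The tissue difference was examined in each treatment group. In the 3 OC pairs 1429 genes (9.82%) were higher in ovary and 1383 (9.5%) in uterus, and in the 4 OT pairs 1300 (8.93%) and 1358 (9.33%). The groups are different mice. Of genes higher in ovary, 1084 were called in both, 75.86% of the OC calls and 83.38% of the OT calls. Of those higher in uterus 961 were, 69.49% and 70.77%. Among OC calls 98.11% of ovary genes and 98.99% of uterus genes had the same sign in the OT pairs, and 2 genes were called in opposite directions. In the test of the difference itself, limma's interaction of tissue and treatment, no gene (0.0%) had an adjusted p under 0.05. The smallest adjusted p was 0.76, and 829 genes (5.695%) had an unadjusted p under 0.05. With 3 OC and 4 OT mice differences can be missed, so this result does not show that the groups were alike.

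The 3 genes with the smallest interaction p were Krt5, Agt and Cyp2f2. The interaction was -6.90 ± 1.04 for Krt5. Agt, the precursor of angiotensin, was 22.93 to 60.77 FPKM in ovaries, 0.605 to 1.36 in OC uteruses and 3.254 to 18.81 in OT uteruses, an interaction of -2.76 ± 0.44. Cyp2f2, a cytochrome P450, was 4.797 to 13.81 FPKM in ovaries, 1.514 to 4.178 in OC uteruses and 15.65 to 33.19 in OT uteruses. Its tissue difference was 1.60 in the OC pairs and -1.41 in the OT pairs. All 3 had an adjusted p of 0.76. Krt5 belongs to the squamous list, and the adipocyte and squamous sums given above were also higher in each OT uterus than in any OC uterus.

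Some genes called in the same direction lay side by side. Along the tested genes, 31.87% of those higher in ovary and 33.99% of those higher in uterus had a neighbour with the same call, and 30 runs held at least 4 such genes, 17 on the ovary side and 13 on the uterus side. Of all tested genes 9.53% were called higher in ovary and 10.1% higher in uterus. The share of called genes with such a neighbour by position alone was not computed. The members of runs are named after their values were seen. The longest was a run of 8 on chromosome 15 that held Krt5 and other keratins, higher in uterus by 1.34 to 6.26. Hoxa9 to Hoxa13 formed a run of 4 on chromosome 6, and the 5 genes from Hoxc4 to Hoxc9 formed a run on chromosome 15 in ovary. Lhcgr and Fshr began a run of 5 on chromosome 17 in ovary. Mast cell and granzyme genes, Cma1, Mcpt4, Gzmf, Gzmc and Gzmb, formed a run on chromosome 14 in uterus. Histone genes of chromosome 13 formed 4 ovary runs of 5 or 6 genes. Keratins, histones, granzymes and Hsd3b genes are families of similar sequence, and the sharing of reads between their members is uncertain.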

How the data were processed

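RNA from the ovary and uterus of each mouse was sequenced as rRNA-depleted stranded libraries. The authors trimmed reads with Skewer 0.2.2, and the submitters' processing notes name STAR 2.5, Cufflinks 2.2.1 and Cuffdiff. The deposited values were FPKM per gene and library on mm10, estimated by the authors with Cufflinks. They are not counts, and read depth is not given in the sources used here. Gene positions came from GENCODE M21, where 48 genes did not have a symbol of their own.

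Genes whose FPKM averaged 0.5 or more across the 14 libraries were fitted with limma 3.58.1 (R 4.3.3) on log2(FPKM + 0.1), with mouse as a fixed block, eBayes with trend and Benjamini-Hochberg adjustment over all tested genes. SE values are limma's. Same-numbered organs are paired by the mouse named in the labels. Across genes, their deviations from the group means correlated at 0.074 to 0.254, and those of other mice of the group at a mean of -0.0537. Deviations from a group mean sum to 0, so the second value follows from the first and is no independent comparison. With mouse as a random block the consensus correlation was 0.0894. The interaction of tissue and treatment was fitted within the same block. Single genes were also tested by an exact two-sided sign-flip permutation of the 7 differences. The study compared treatments with Cuffdiff on reads, which cannot be run on FPKM. The fits were also run on simulated data with independent normal errors. That run was a check of the code and adds no support to the results.

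Genes named were the 12 with the largest called difference in each direction (same sign in 7 pairs, at least 10 FPKM in the higher organ), the 4 largest called members of each list, the 2 most abundant of each list of other cells, the 5 most abundant genes of each organ, a set of defining genes, the 6 called genes of largest spread, the 5 highest genes on in 1 organ only and the 3 of smallest interaction p. An item that the rule names is not reported here. The pairs, gene lists and tests were chosen with earlier results of these data known. Alternatives were other pseudocounts, filters and scalings, no block, a random block, robust eBayes, each treatment group alone and leaving out each mouse.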

Additional observations from a re-analysis of the deposited data

Results flagged for a closer look

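In 144 series of 7 values, 1 per mouse, the gap from the highest or lowest mouse to the next was divided by the full range. Shares past 0.568 (Dixon's test) were flagged by this check, which happens by chance in about 1 of 20 series of normally distributed values. In all 16 results were flagged, Cyp2f2 for opposite signs in OC and OT pairs and the rest by this check. Some flagged series are related, such as Hba-a1, Hbb-bs and the erythrocyte list. The OT1 mouse stood apart most often. Its uterus had the highest summed FPKM, 577494. Its ovary minus uterus difference was apart for Foxl2 (4.61), Hba-a1 (-2.42), Hbb-bs (-2.80), Pcp4 (-9.33) and Rplp1 (-1.62), and for the summed complement (-2.05), housekeeping (-0.87), brown fat (-4.82) and erythrocyte lists (-2.66). The complement list summed to 6975 FPKM in the OT1 uterus, where Cfd, the adipocyte protease adipsin, was at 5531. The OT1 uterus also carried the adipocyte, brown fat and urothelium genes described above, and the OT1 ovary had the lowest Pcp4 and Hoxa10. The part of these tissues in the OT1 values was not tested. Without OT1, 1416 genes were higher in ovary and 1515 in uterus.

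Of the other mice, OC1 was apart for Ccnb1 (3.08) and Cdk1 (2.78), both higher in its ovary than its uterus by more than in the other mice. OC3 was apart for Ccdc153 (6.15), OT3 for Tmem212 (6.97, with all uteruses listed at 0) and OT2 for the summed theca and luteal list (3.80). Cyp2f2 was higher in ovary in each OC mouse and higher in uterus in each OT mouse, an interaction of -3.01 ± 0.52 with an adjusted p of 0.76.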

How the results depend on the processing

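Across the alternatives the count of genes higher in ovary ran from 887 (mean FPKM of at least 2, where fewer genes are tested) to 1841 (library totals), and that of genes higher in uterus from 997 (pseudocount 1) to 1732 (quantile normalization). Without the replicate block the counts were 1386 and 1421, and with a random block 1390 and 1443. Leaving out 1 mouse gave 1345 to 1416 and 1395 to 1515. The median of all genes was 0.019 without a filter, 0.029 with 75th percentile scaling and 0.251 with library totals. With library totals centred on that median, 1388 and 1440 genes differed by at least 1. At 2 FPKM or more against under 0.1 FPKM, 36 genes were on in ovary only and 0 in uterus only, and with off under 0.05 FPKM 0 were on in uterus only.

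Genes that changed sign had not been called. With library totals the differences became 0.01 for Xbp1, 0.12 for Krt19, 0.10 for Hbb-bs, 0.13 for Cyp2f2 and 0.02 for Hba-a1. With quantile normalization they became 0.03 for Actb, -0.18 for Foxa2, 0.38 for Eef1a1 and 0.06 for Hbb-bs, and a pseudocount of 1 gave -0.04 for Foxa2. In the OC pairs they were -0.03 for Pecam1, 0.18 for Krt19, 0.22 for Car3, -0.48 for Foxa2, 0.09 for Hbb-bs, 1.60 for Cyp2f2 and 0.11 for Cfd, and in the OT pairs -0.36 for Jchain. Leaving out 1 mouse gave -0.37 to 0.07 for Krt19, -0.19 to 0.21 for Foxa2, -0.29 to 0.29 for Hbb-bs, -0.47 to 0.32 for Cyp2f2, -0.10 to 0.25 for Jchain and -0.38 to 0.14 for Hba-a1. The causes were not tested. Of 2122 values of 112 named genes, 2062 kept direction and call. Without read totals, counting error at low FPKM is unknown.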
